A study of Mus musculus with 6 samples.

Results

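Messenger RNA of 7 genes of the CD40 and non-canonical NF-kB pathway (Cd40, Fas, Map3k14, Nfkb2, Relb, Birc2 and Traf1) was examined in type 1 conventional dendritic cells (cDC1) with and without CD40 stimulation. The genes were taken by symbol from the platform annotation, and all 7 were present among the 12780 genes that could be tested. The cells were migratory cDC1 of wild-type C57BL/6 mice, sorted from skin-draining lymph nodes by a gate that required high MHC II, intermediate CD11c, XCR1 and CD40 on the surface and excluded B220, CD326 and Sirpa. Both groups carried the same genotype and went through the same gate, so cells without surface CD40 were absent by design from each. The design set 3 samples left without stimulation against 3 that had received anti-CD40, and each sample was run on 1 single-colour Affymetrix array. The labels call them biological replicates but do not say whether each came from other mice, so the p-values rest on sample-to-sample spread that may in part be technical. The sources used here do not give the age of the mice or the dose, route and duration of the stimulation.

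CD40 is a receptor of the TNF receptor superfamily that binds CD40 ligand on activated T cells, and antibodies against CD40 are used to engage it without T cells. In the non-canonical branch of NF-kB signalling, TRAF2, TRAF3 and the ubiquitin ligases cIAP1 (gene Birc2) and cIAP2 (Birc3) keep the kinase NIK (gene Map3k14) at low levels in resting cells by having it degraded. Engagement of CD40 recruits these adaptors to the receptor, NIK protein accumulates and activates IKK alpha, and the precursor p100 (gene Nfkb2) is cut to p52, which enters the nucleus with RelB. In dendritic cells this pathway is known for its part in maturation and in the priming of CD8 T cells. Much of it is controlled at the level of protein, which arrays do not measure.

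The promoter of Nfkb2 is shown because the gene is itself a known target of NF-kB, and that of Nfkbia, which encodes the inhibitor IkB alpha, because its values followed those of Cd40 across the arrays. Windows from 250 bases before to 50 bases after an annotated transcript start were taken from RefSeq (GRCm38.p6), where 5 of the 7 genes matched by symbol. They were searched on both strands for the kappaB consensus, a motif of 10 bases. Capitals mark the matches, 2 of which overlap in Nfkb2. The Nfkb2 window lies at chr19:46304487-46304786 on the plus strand and the Nfkbia window at chr12:55492598-55492897 on the minus strand.
Nfkb2: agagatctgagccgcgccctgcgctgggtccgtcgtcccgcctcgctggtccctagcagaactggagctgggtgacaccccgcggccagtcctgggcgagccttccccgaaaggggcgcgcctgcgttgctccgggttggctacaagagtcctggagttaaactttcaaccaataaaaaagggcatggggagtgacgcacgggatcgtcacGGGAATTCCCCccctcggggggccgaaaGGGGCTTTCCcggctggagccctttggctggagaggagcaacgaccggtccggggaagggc
Nfkbia: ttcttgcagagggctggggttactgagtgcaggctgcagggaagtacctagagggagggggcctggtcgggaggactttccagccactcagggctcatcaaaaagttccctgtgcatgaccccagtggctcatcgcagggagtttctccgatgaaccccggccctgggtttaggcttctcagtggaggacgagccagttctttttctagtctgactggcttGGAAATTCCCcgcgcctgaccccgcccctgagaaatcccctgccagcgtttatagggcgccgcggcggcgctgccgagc
This Nfkb2 window held 3 matches, at -39, -38 and -11 counted from the start site, and the Nfkbia window held 1, at -29. Nfkb2 also had windows with 2 and with 1 matches, which overlap each other, and the window with most matches is shown. Of all 32851 windows of 300 bases in the RefSeq table, 4.51% held a match. That share counts windows and not genes, and Nfkb2 and Birc2 had several windows each. Of the 5 genes with a window, only Nfkb2 had a match. Of other pathway genes looked up in the same way, Birc3 and Traf2 had no match, and Rel, Tnfaip3 and Traf3 had at least 1. The genes Eprs and Nup62, whose values followed those of Cd40 more closely, were not looked up one by one. The match in Nfkbia therefore does not tie likeness to Cd40 to this motif. A match describes these letters and does not show that NF-kB was bound there.

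Over the whole table, 2 genes passed a Benjamini-Hochberg adjusted p under 0.05 in the limma fit (0.0156% of genes), both higher in stimulated cells. None of the 7 pathway genes was among them, and each had a limma adjusted p of 0.99998. At an unadjusted p under 0.05, 2 of the 7 were higher, where 2.07% of all genes were, and 0 were lower, where 1.42% were. In bulk RNA, a lower share of cells with a transcript and less of it per cell cannot be told apart. The differences of the 7 genes ran from -1.03 to 1.01 on the log2 scale with a median of 0.19, beside a median of 0.005 for all genes. Receptor genes had the positive differences of largest size and the kinase gene Map3k14 the negative one of largest size.

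**Figure D1:**
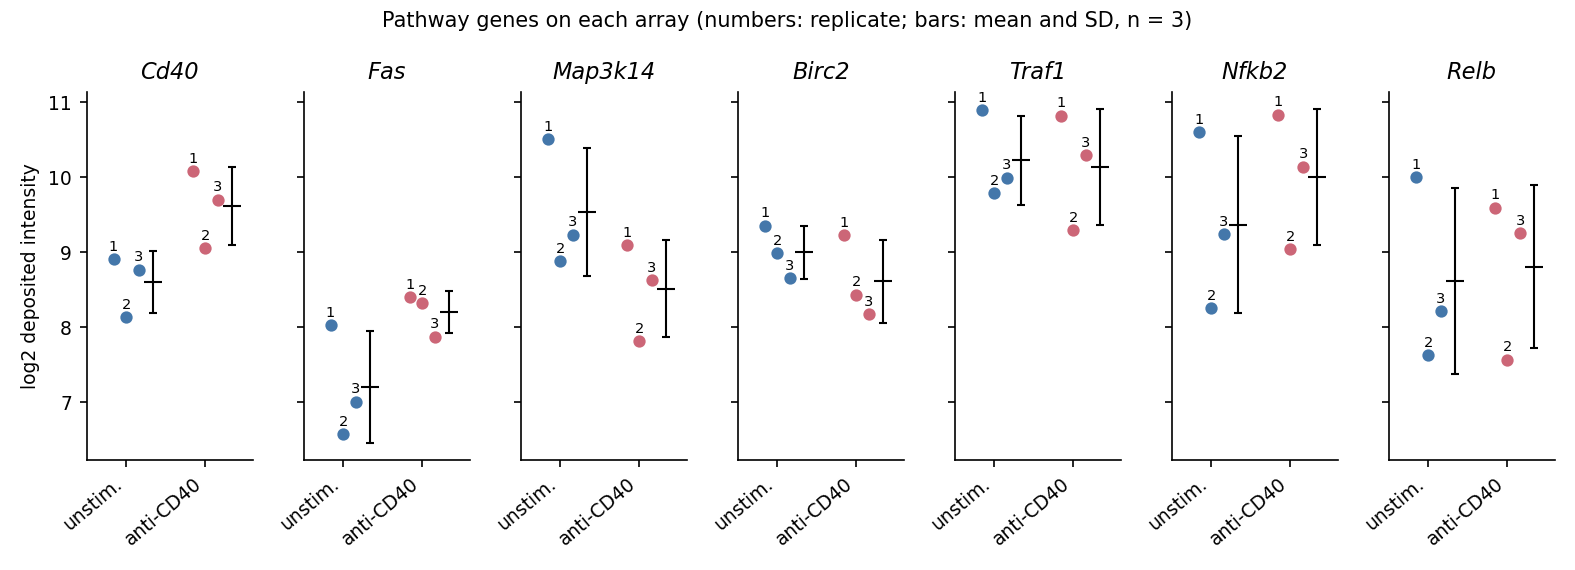
Log2 of the deposited intensity (vertical axis) of the 7 genes on each of the 6 arrays, with unstimulated samples in blue and anti-CD40 stimulated samples in red, the replicate number above each point, and the mean and SD of each group (n = 3) as black bars. The 3 stimulated values of Cd40 lie above the 3 unstimulated ones, while for Nfkb2 and Relb the points of each group span more than the distance between the group means.

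Cd40, the receptor that the antibody engages, had intensities of 481, 281 and 435 in unstimulated replicates 1, 2 and 3. In stimulated replicates 1, 2 and 3 they were 1083, 530.1 and 832. All 3 stimulated arrays were above all 3 unstimulated ones, and Cd40 was the only gene of the 7 whose groups did not overlap in either direction, as was the case for 7.14% of all genes (3.68% higher and 3.46% lower). The groups averaged 8.60 ± 0.41 and 9.61 ± 0.52 log2 units (SD, n = 3 each), a 2.01-fold higher level with stimulation (95% interval 1.19 to 3.39). The log2 difference was 1.01 ± 0.32 (SE), with a limma unadjusted p of 0.0155 and adjusted p of 0.99998 over all genes.

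Fas encodes the death receptor of the same superfamily, whose expression CD40 signals are known to raise in B cells. Its intensities were 262, 95.5 and 129 in the unstimulated replicates 1 to 3 and 338, 320.0 and 235 in the stimulated ones. Unstimulated replicate 1 lay above stimulated replicate 3, so the groups overlapped, while the other two unstimulated arrays were below every stimulated one. The stimulated level was 1.99-fold that of unstimulated cells (95% interval 1.09 to 3.65), from 7.21 ± 0.75 to 8.20 ± 0.28 log2 units (SD, n = 3 each). The log2 difference of 0.99 ± 0.37 (SE) had a limma unadjusted p of 0.031. It was 0.62 without both arrays numbered 2.

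Map3k14, the gene of the kinase NIK, was the one that differed furthest downward. Its intensities were 1450.0, 472 and 601 without stimulation and 546, 226 and 395 with it, in the order of the replicate numbers. Stimulated replicate 1 lay above unstimulated replicate 2, so the groups overlapped. The means were 9.54 ± 0.85 and 8.51 ± 0.65 log2 units (SD, n = 3 each). The log2 difference was -1.03 ± 0.48 (SE), with a 95% interval from -2.16 to 0.10 and a limma unadjusted p of 0.069. Without unstimulated replicate 1, the brightest array for this gene, the difference was -0.54.

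Birc2 encodes cIAP1, the ubiquitin ligase that marks NIK for degradation. It had intensities of 655, 507 and 403 in unstimulated replicates 1, 2 and 3, and of 599, 346 and 288 in the stimulated ones. The ranges overlapped over most of their length. The log2 difference was -0.39 ± 0.32 (SE, 95% interval -1.13 to 0.35), and it lay between -0.70 (without stimulated replicate 1) and -0.17 (without stimulated replicate 3). Birc2 was the only gene of the 7 with a second probe set. That probe set was dimmer, at 74.7, 32.9 and 59.1 without and 44.6, 37.2 and 36.6 with stimulation, and differed by -0.42 ± 0.31 (SE), in the same direction and without passing the test. Its paralogue Birc3, which encodes cIAP2, differed by -0.02 ± 0.24 (SE).

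Traf1 encodes an adaptor that joins TRAF2 at receptors such as CD40 and is a known target of NF-kB. Its intensities were 1896, 881 and 1020.0 in the unstimulated and 1807, 627 and 1256 in the stimulated replicates 1, 2 and 3. The lowest and the second highest value were both from stimulated arrays. The log2 difference was -0.09 ± 0.44 (SE, 95% interval -1.12 to 0.95), which reaches from a 2.18-fold lower to a 1.93-fold higher level. The sign turned without unstimulated replicate 1 (0.25) and without stimulated replicate 2 (0.34).

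Nfkb2, the gene of p100 and p52, had intensities of 1556, 305 and 605 without stimulation. With stimulation they were 1826, 526 and 1126. The spread inside each group was wider than the distance between the group means, with SDs of 1.18 and 0.91 log2 units (n = 3 each). The log2 difference was 0.64 ± 0.65 (SE, 95% interval -0.90 to 2.18). Leaving out unstimulated replicate 2 gave 0.08, and leaving out unstimulated replicate 1 gave 1.26. Without both arrays numbered 1, 2 and 3 in turn, the difference was 0.84, 0.56 and 0.51.

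Relb encodes the partner of p52. It had intensities of 1025, 198 and 296 in unstimulated replicates 1, 2 and 3, and of 773, 189.6 and 612 in stimulated ones. The highest value came from an unstimulated array and the lowest from a stimulated one. The log2 difference was 0.19 ± 0.72 (SE, 95% interval -1.50 to 1.88). Its sign turned when any of 4 single arrays was left out, with a lowest value of -0.30 without unstimulated replicate 2.

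**Figure D2:**
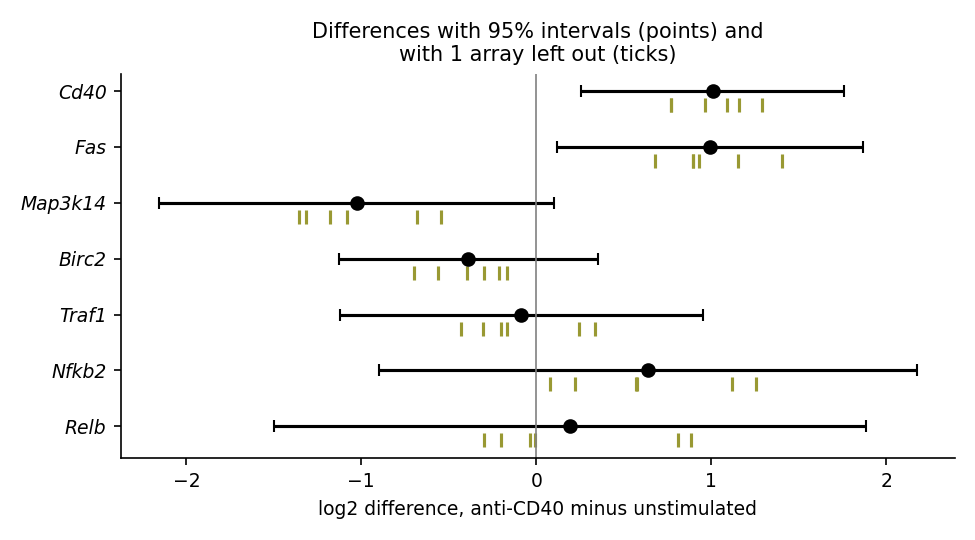
Log2 difference between anti-CD40 stimulated and unstimulated cDC1 (horizontal axis) for the 7 genes, with 95% intervals from the limma fit (points and bars) and the difference with 1 of the 6 arrays left out at a time (ticks). In this fit without a replicate block, the intervals of Cd40 and Fas lie above 0 before adjustment over all genes. The ticks of Relb and Traf1 fall on both sides of 0.

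The arrays of 1 group differed more for these genes than for most others. The SD between arrays of a group was 1.16 log2 units for Relb, 1.05 for Nfkb2, 0.76 for Map3k14 and 0.69 for Traf1, where the median of all genes was 0.28. A smaller SD than that of Relb was found for 99.6% of all genes and for 99.4% of the 659 genes whose mean lay within 0.5 log2 units of its own. For Nfkb2 these shares were 99.3% and 98%, for Map3k14 95.8% and 88.4%, and for Traf1 93.6% and 85.9%. Cd40, at 80.3% and 57.8%, and Birc2, at 79.3% and 58%, were nearer the middle of genes of like level, and Fas lay between, at 87.6% and 71.1%.

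The direction of this spread was shared between the groups. For Cd40, Map3k14, Nfkb2, Relb and Traf1 the array numbered 1 was the highest and the array numbered 2 the lowest in unstimulated and in stimulated cells alike, a pattern held by 13.6% of all genes. The interquartile range of log2 intensities over all genes was ordered in the same way, at 2.19, 1.74 and 1.92 for replicates 1, 2 and 3 without stimulation and at 2.31, 1.75 and 2.03 with it. With that range as a covariate the SE of the difference was 0.21 for Nfkb2 and 0.19 for Map3k14. The differences were then 0.31 for Nfkb2 (adjusted p = 0.822), -1.26 for Map3k14 (adjusted p = 0.0875), -0.16 for Relb (adjusted p = 0.957) and 0.86 for Cd40 (adjusted p = 0.143), all by limma. What the arrays numbered 1 and 2 differed in was not tested.

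**Figure D3:**
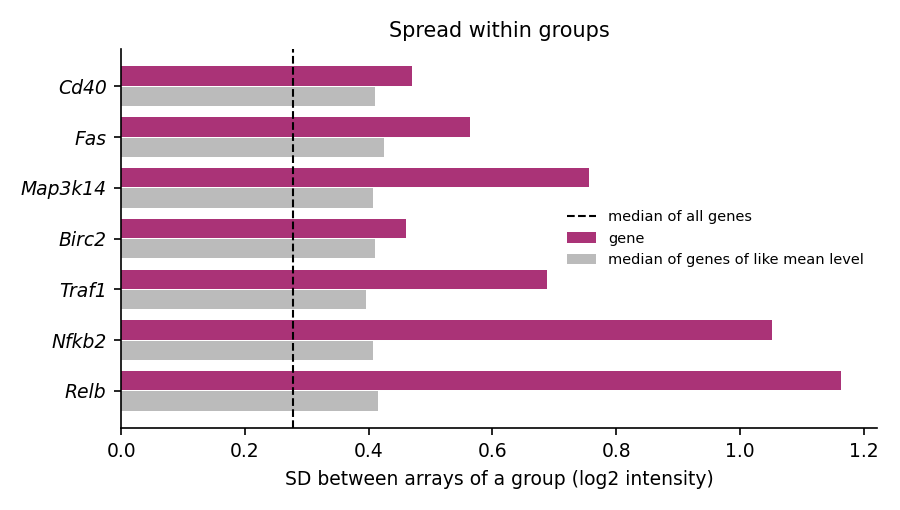
SD between arrays of the same group (horizontal axis, log2 intensity, pooled over both groups) for the 7 genes (purple), with the median of genes of like mean level (grey) and of all genes (dashed line). Relb and Nfkb2 have SDs of 1.16 and 1.05, against medians of 0.42 and 0.41 for genes of like level.

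Ratios taken within an array remove what 2 genes share on it. They were formed after the values above had been seen, with Map3k14 as the denominator because it differed furthest downward, so they are a description with no test. Without stimulation the log2 ratio of Cd40 to Map3k14 took values of -1.59, -0.75 and -0.47 on the 3 arrays, and with stimulation it reached 0.99, 1.23 and 1.08. The mean ratio differed by 2.03 log2 units, which is by construction the distance between the differences of the 2 genes. The ratio of Nfkb2 to Map3k14 was -0.17 ± 0.40 without and 1.49 ± 0.26 with stimulation (SD, n = 3 each). Of the other 6 genes, 5 had ratios to Map3k14 that were higher on every stimulated array, all except Birc2. The same held for 32.1% of all genes. Without Map3k14, only the ratios of Nfkb2 to Relb, Cd40 to Relb and Cd40 to Nfkb2 were formed, and each overlapped between the groups. Ratios of the other pairs were not formed, so nothing general follows for ratios without Map3k14. The mean log2 ratio differed by 0.45 for Nfkb2 to Relb, by 0.82 for Cd40 to Relb and by 0.37 for Cd40 to Nfkb2.

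Likeness of pattern was measured as the root mean squared difference of mean-centred log2 values over the 6 arrays. The 3 genes nearest to Cd40 were Eprs, which encodes a tRNA synthetase (0.14), Nup62, which encodes a nuclear pore protein (0.15), and Nfkbia (0.15), where the median over all genes was 0.67. For Nfkb2 the nearest gene was Sema4c (0.08), for Relb Psap (0.16), for Map3k14 Arrb1 (0.16), for Fas Uprt (0.15), for Birc2 Sqle (0.07) and for Traf1 Wdr1 (0.08). Among the 7 genes themselves the nearest pair was Nfkb2 and Relb, at 0.31, with Relb at rank 137 of 12779 genes around Nfkb2. Map3k14 stood at rank 12643 around Cd40 and at rank 12604 around Fas, near the far end of the table.

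Other genes of the pathway were read as lists. Of 11 measured TRAF adaptors and partners, 0 passed the limma test over all genes, 5 differed upward and 6 downward, and the median was -0.04. Traf4 differed by 0.59 ± 0.17 (SE) and Tifa, an adaptor of TRAF6, by -0.57 ± 0.20 (SE). Neither had overlapping groups, where 3.68% of all genes were higher and 3.46% lower without overlap. Traf2, which holds cIAP1 in the complex that degrades NIK, differed by -0.12 ± 0.60 (SE). Messenger RNA of Traf3 and Nfkb1 was not analysed here. The list of IAP ubiquitin ligases and NIK control had 9 measured genes, Map3k14 and Birc2 among them. Their median was -0.02, with 4 upward and 5 downward and 0 past the threshold. In that list Peli1, a ubiquitin ligase gene, differed by -0.35 ± 0.26 (SE) and Ikbke by 0.12 ± 0.18 (SE). Otub1, a deubiquitinase gene, differed by 0.40 ± 0.62 (SE). Among the 10 measured receptors that can use the non-canonical pathway, Cd40 had the largest difference, followed by Tnfrsf18, the gene of GITR, at 0.86 ± 0.41 (SE), and Tnfrsf4, the gene of OX40, at 0.61 ± 0.40 (SE). Tnfrsf11a, the gene of RANK, differed by -0.34 ± 0.20 (SE), its groups not overlapping, and the lymphotoxin beta receptor gene Ltbr by 0.05 ± 0.15 (SE). The list had a median of 0.06 and 0 members past the threshold.

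The 2 genes that passed over all genes were ligands of this superfamily, Cd70 (2.66 ± 0.18 SE, limma adjusted p = 0.0126) and Tnfsf9 (3.19 ± 0.26 SE, limma adjusted p = 0.0285). Neither call held when any 1 array was left out, and that of Tnfsf9 was also lost with a pseudocount of 16. The differences themselves stayed between 2.46 and 2.74 for Cd70 and between 2.85 and 3.57 for Tnfsf9 over 19 alternatives. Of 8 measured ligands, the other 6 had differences between -0.13 and 0.65, with a median of 0.14 over all 8. The nearest to passing among them was Tnfsf4, the ligand of OX40, at 0.65 ± 0.53 (SE).

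Downstream of the receptors, 0 of 11 measured genes of the IKK complex and its upstream kinases passed (median 0.29). Map3k8, the kinase TPL2, differed by 0.68 ± 0.30 (SE) and Tab3, a partner of the kinase TAK1, by -0.73 ± 0.31 (SE), its groups not overlapping. Lower values without overlap were found for 3.46% of all genes. Of the ubiquitin ligase and neddylation genes that process p100 and IkB, 7 were measured with a median of 0.04 and 0 past the threshold, and the scaffold gene Cul1 differed by -0.40 ± 0.29 (SE). The remaining measured NF-kB subunit genes were Rela, at 0.29 ± 0.35 (SE), and Rel, at -0.26 ± 0.23 (SE). None of the 4 subunit genes passed the test. At an unadjusted limma p under 0.05, 1 of the 11 adaptors was higher and 1 lower, 1 of the 11 IKK genes was lower, and 1 of the 10 receptors, Cd40 itself, was higher, beside 2.07% of all genes higher and 1.42% lower. None of the NIK control, p100 processing or subunit genes reached it.

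Inhibitors of NF-kB include known targets of the pathway that act as its feedback. Of 17 measured, 12 differed upward and 5 downward with a median of 0.04, and 0 passed. Nfkbia had intensities of 2125, 1393 and 1805 in unstimulated and 3865, 2080.0 and 3775 in stimulated replicates 1, 2 and 3, so that 1 stimulated array lay just under the highest unstimulated one. Its log2 difference was 0.84 ± 0.29 (SE, limma unadjusted p = 0.0237), the only one of the 17 under 0.05 before adjustment. Nfkbiz, the gene of IkB zeta, differed by 0.64 ± 0.30 (SE), and Tnfaip3, the gene of the deubiquitinase A20, by 0.69 ± 0.54 (SE). Pdlim2 differed by 0.40 ± 0.17 (SE) and was the only one of the 17 whose groups did not overlap. Higher values without overlap were found for 3.68% of all genes.

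Around Fas, 10 genes of death receptor signalling were measured, with a median of 0.20, 0 past the threshold and 3 higher at an unadjusted limma p under 0.05, Fas among them (2.07% of all genes were higher). Fadd, the adaptor that binds the death domain of Fas, differed by 0.59 ± 0.21 (SE). Its groups did not overlap, and 3.68% of all genes were higher without overlap. Daxx, which was first described as a Fas-binding protein, differed by 0.74 ± 0.30 (SE). Faim, also in this list, differed by -0.29 ± 0.18 (SE). Casp8, the caspase activated at the receptor, differed by -0.16 ± 0.17 (SE), and Cflar, which restrains it, by 0.21 ± 0.18 (SE). Genes known as NF-kB targets had the highest median of the lists, 0.49 over 26 measured genes, of which 21 differed upward and 5 downward. At an unadjusted limma p under 0.05, 8 were higher and 0 lower, where 2.07% and 1.42% of all genes were, and 0 passed over all genes. This list, like the others, was chosen with earlier results of these data known. Its median and counts therefore describe the listed genes only, and not NF-kB targets at large. Bcl2l1, the survival gene of BCL-XL, differed by 1.80 ± 0.24 (SE, limma adjusted p = 0.203), Cd86 by 1.54 ± 0.22 (SE, limma adjusted p = 0.208) and Ebi3, a subunit of IL-27, by 1.58 ± 0.22 (SE, limma adjusted p = 0.208). These 3 calls turned on the settings. All 3 genes passed with array weights, Bcl2l1 and Ebi3 also with the interquartile range as covariate, and Bcl2l1 also with a further quantile normalisation.

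**Figure D4:**
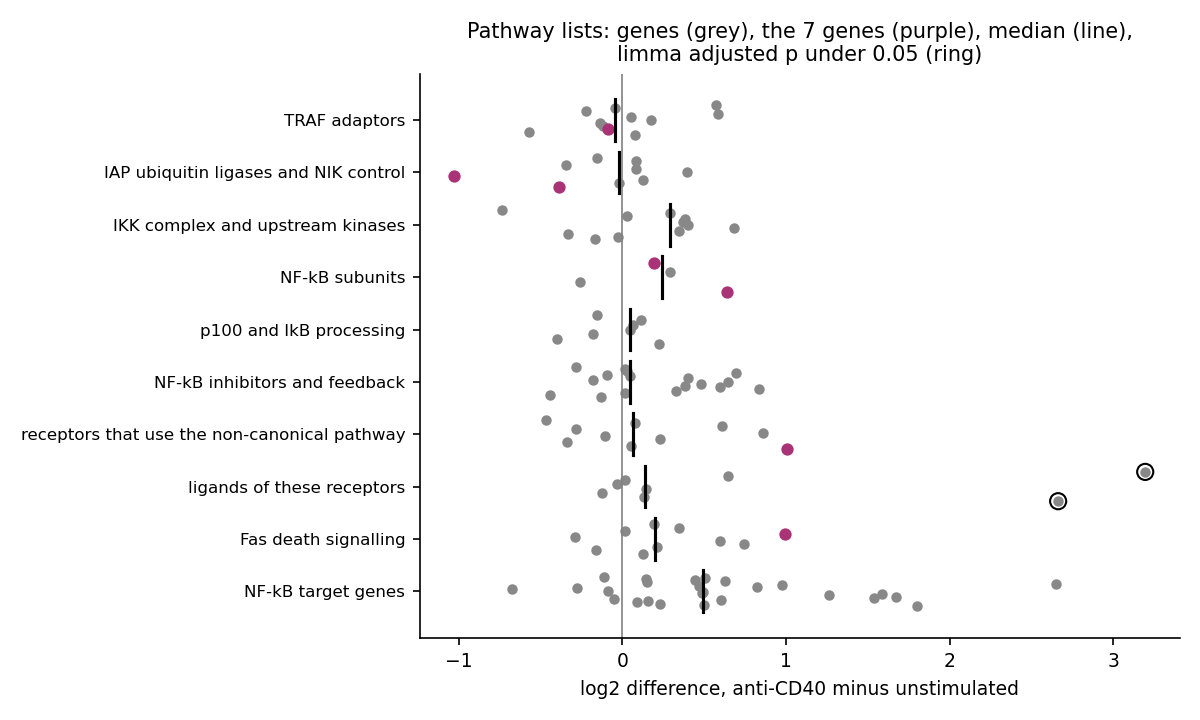
Log2 difference between anti-CD40 stimulated and unstimulated cDC1 (horizontal axis) of each measured gene of 10 pathway lists (rows), with the list median as a black line, the 7 genes in purple and genes past an adjusted p of 0.05 ringed. The ringed genes are Tnfsf9 and Cd70 at 3.19 and 2.66, and the medians lie between -0.04 and 0.49.

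B cells also carry CD40 and use the same pathway, so markers of cells that a lymph node sort can hold were read beside these values. Of 11 listed B cell markers 3 were measured, and their summed intensity was 96.5 to 162 in unstimulated and 89.6 to 139 in stimulated arrays, with no single value over 62.5. The 7 measured T cell markers of 11 summed to 179.7 to 274 and 213 to 403, and the 3 measured of 9 monocyte and macrophage markers to 87.1 to 101 and 76.5 to 132. The 2 measured of 8 cDC2 markers summed to 58.6 to 72.3 and 66.2 to 112. The 4 measured of 6 plasmacytoid dendritic cell markers were brighter, at 460.0 to 576 and 426 to 696, with Bst2 the brightest, at up to 514. Bst2, which many cell types express, differed by -0.07 ± 0.30 log2 units (SE). Epcam, the gene of the CD326 that the gate excludes, was higher on every stimulated array, as were 3.68% of all genes. It averaged 4.74 ± 0.15 and 5.31 ± 0.23 log2 units (SD, n = 3 each, limma unadjusted p = 0.0176, adjusted p = 0.99998). Cd207, the other measured Langerhans cell marker, differed the other way, by -0.07 ± 0.19 (SE), its groups overlapping. Sirpa, which the gate also excludes, was higher on every stimulated array too, with means of 4.67 and 4.83 and a difference of 0.15 ± 0.15 (SE). Of 6 listed NK cell markers 2 were measured, Klrk1 and Prf1. Klrk1 differed by -0.78 ± 0.26 (SE, limma unadjusted p = 0.0192, adjusted p = 0.99998), its groups overlapping. Prf1 differed the other way, by 0.07 ± 0.20 (SE). The median intensity of an array lay between 51.9 and 56.3. Of the cDC1 markers 11 of 12 were measured, of which 6 differed upward and 5 downward, with a median of 0.17. Irf8 was the brightest, and Batf3 averaged 9.35 and 9.76 log2 units in unstimulated and stimulated cells. Xcr1, a marker of the sort, was dim in both groups, at 4.44 and 4.67, below the median of every array. Itgae (4.76 and 4.92), Wdfy4 (4.91 and 4.90), Naaa (5.18 and 5.11) and Snx22 (4.60 and 4.57) also had group means below it. The part of other cells in the differences was not tested.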

How the data were processed

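Biotinylated cDNA was made from very small amounts of total RNA with the Affymetrix WT Pico kit, per the labels' protocols. The authors ran RMA (background correction, quantile normalisation and summary by probe set) in Affymetrix Expression Console, per the submitters' processing notes. The sources used here give no versions. The deposited table holds intensities of 17551 probe sets on 6 arrays. They run from 6.97 to 13701 and are thus on a linear scale, so log2 was taken. The arrays still differed in interquartile range over the tested genes, from 1.74 to 2.31 log2 units. Why they did after the stated quantile normalisation was not tested. The higher group geometric mean was at least 20.001 in every row, so genes under that level are not in the table. The number of arrays, 3 a group, limits the precision.

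Gene symbols came from the platform annotation (13963 with 1 symbol, 970 with several, 2618 with none). For 677 genes with several probe sets the brightest by mean was used, which left 12780 genes. Stimulated minus unstimulated differences were fitted in R 4.3.3 by limma 3.58.1 (two-sided, lmFit and eBayes with no covariates), with Benjamini-Hochberg adjustment over all genes and a threshold of 0.05. The fit was tested on simulated data. Alternatives were other variance models, filters, normalisations, weights, covariates, probe set rules, a pseudocount of 16 and fewer arrays. Figures were drawn with matplotlib 3.10.9.

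All 7 genes were named, with the genes of nearest pattern and up to 3 others per list. The others passed or had the largest moderated statistics of their list, and some genes picked by this rule are not given. Birc3, Traf2, Ltbr, Tnfaip3, Casp8 and Cflar were named in addition, after their values were seen. So were the marker genes Bst2, Epcam, Cd207, Sirpa, Klrk1, Prf1, Itgae, Wdfy4, Naaa and Snx22. Members and lists were chosen with earlier results of these data known.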

Additional observations from a re-analysis of the deposited data

How the results depend on the processing

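Over 19 alternatives for each of the 7 genes, none passed the threshold, and 123 of 133 values kept their direction. The exceptions were Relb and Traf1. Relb differed by -0.16 with each array's interquartile range added as covariate, by -0.24 without both arrays numbered 3, and by -0.30 to 0.88 when 1 array was left out. Traf1 differed by 0.19 with array weights, by 0.12 without both arrays numbered 2, and by -0.43 to 0.34 when 1 array was left out. Over all genes, 2 higher and 0 lower became 5 and 1 with quantile normalisation once more, 28 and 18 with array weights, 11 and 4 with that covariate, and 3 and 1 with medians centred. There was 1 higher with a pseudocount of 16, and 0 higher without any 1 array (range 0 to 0) or without both arrays of any number. Leaving out both arrays of a number was chosen after seeing the data. Fewer arrays are fitted there, and for the other changes the cause was not tested.

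The labels give both groups the replicate numbers 1 to 3 without saying what they share. Deviations from the group means correlated across genes at 0.73, 0.59 and 0.06 for numbers 1, 2 and 3, and unstimulated replicate 3 correlated better with stimulated replicate 2 (0.19). From the other side, each stimulated array correlated best with the unstimulated array of its own number. The labels state no pairs and the main fit used none, so it ignores what arrays of a number share. Its SEs of 0.65 for Nfkb2 and 0.48 for Map3k14 were 0.18 and 0.19 with the replicate number as a block. With the replicate block, 30 genes were higher and 8 lower, and the smallest limma adjusted p among the 7 genes was 0.0627, for Cd40 (0.92 to 1.17 within the 3 numbers). Within all 3 numbers, 5 of the 7 genes kept their direction, all except Relb and Traf1. The share of all genes that did so was not computed, so this count only describes the 7 genes. Map3k14 differed by -1.41 to -0.61 and Nfkb2 by 0.23 to 0.90 within the numbers. Of the 26 NF-kB target genes 5 passed with the block and 0 without it, namely Bcl2l1, Ebi3 and Ptgs2 (limma adjusted p = 0.00812 each), Cd86 (0.0235) and Csf1 (0.0371). Ptgs2 and Csf1 were named after their values were seen.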
